A study of Homo sapiens with 14 samples.

Results

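BRM (SMARCA2) and BRG1 (SMARCA4) are the alternative ATPases of the BAF (mammalian SWI/SNF) complex, and the results compare the places where each was found on the chromatin of naïve human embryonic stem cells. The 17413 peaks of the naïve BRM list were set against the 57853 peaks of the naïve BRG1 list on chromosomes 1 to 22 and X of hg38. These 75266 peaks are part of the 234194 peaks that the 10 lists of the series hold on the same chromosomes. A peak was counted as shared where at least 25% of either peak of a pair was covered by the other. The rule left 15266 BRM peaks with BRG1 and 2147 BRM peaks without BRG1. From the BRG1 side there were 14774 peaks with BRM and 43079 without.

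The cells were WIBR3, an established human embryonic stem cell line, kept in naïve 5i/L/A medium on inactivated mouse embryonic fibroblast feeders and not treated further. Chromatin immunoprecipitation followed by sequencing (ChIP-seq) used commercial antibodies to BRM and BRG1 and a laboratory-made antibody to BAF155 (SMARCC1), a scaffold subunit of the same complex. The naïve BRM, BRG1 and BAF155 groups hold 1 library each and share an input, so the spread between cultures is unknown and no test between cultures can be made. The primed lists of the same line, grown with serum and FGF2, and the SOX2 lists of both states enter only as overlaps. The SOX2 groups hold 2 libraries per state, whose lists have identical coordinates and were counted as 1.

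BAF complexes use the energy of ATP to slide or evict nucleosomes and so open promoters and enhancers for transcription factors. Each complex carries either BRM or BRG1, never both, around a core that includes BAF155, so a site in both lists does not place both in 1 complex. BRG1 is the ATPase long known from mouse embryonic stem cells, whereas BRM is better known from differentiated cells. The study asked about BRM because it had found this ATPase beside OCT4 in naïve cells and not in primed cells.

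The 4 stretches printed next show the strongest example of each kind of site, so that the classes can be seen as DNA. Each is the plus strand of hg38, up to 200 bp around the peak midpoint, with capitals marking a match to 1 of the motifs described further on. The first, chr9:132114227-132114426, lies in the BRM peak of highest fold enrichment over input in the whole list (11.4), an intergenic site 34.5 kb from the nearest protein-coding transcription start site (TSS), that of MED27, and holds no match.
BRM with BRG1: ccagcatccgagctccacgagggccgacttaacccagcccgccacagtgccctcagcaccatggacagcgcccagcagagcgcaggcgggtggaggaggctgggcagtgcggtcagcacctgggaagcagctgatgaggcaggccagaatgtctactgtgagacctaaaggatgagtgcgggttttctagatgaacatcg
The second, chr19:10184718-10184917, is the strongest BRM peak without BRG1 (fold 5.36). It overlaps a BAF155 peak, lies 4.44 kb from the nearest protein-coding TSS, that of DNMT1, and within 1 kb of another annotated TSS, and its capitals mark a TFAP2 match.
BRM without BRG1, with BAF155: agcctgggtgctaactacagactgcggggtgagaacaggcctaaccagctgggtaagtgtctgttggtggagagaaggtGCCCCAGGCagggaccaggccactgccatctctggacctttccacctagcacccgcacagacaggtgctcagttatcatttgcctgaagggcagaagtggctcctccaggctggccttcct
The third, chr9:26229842-26230003, is the strongest BRM peak with neither BRG1 nor BAF155 (fold 5.00). It is intergenic, 551 kb from the nearest protein-coding TSS, that of TUSC1, has a GC content of 36.5% and holds a GATA match.
BRM without BRG1, without BAF155: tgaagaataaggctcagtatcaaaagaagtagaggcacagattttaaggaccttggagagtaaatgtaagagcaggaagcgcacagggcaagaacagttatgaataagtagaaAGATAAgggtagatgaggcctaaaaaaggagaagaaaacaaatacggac
The fourth, chr2:216367172-216367371, is the strongest BRG1 peak without BRM (fold 6.47), 5.21 kb from a TSS of MARCHF4 and within an intron, with a KLF/SP match on the minus strand.
BRG1 without BRM: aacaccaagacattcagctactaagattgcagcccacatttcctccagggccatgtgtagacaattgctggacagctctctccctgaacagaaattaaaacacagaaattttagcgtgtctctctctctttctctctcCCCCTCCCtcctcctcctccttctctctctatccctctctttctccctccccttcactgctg

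To ask whether the 2 ATPases occupied the same sites, the shares of each list with a partner in the other were compared. Most BRM peaks had a BRG1 peak (87.7%, 95% exact interval 87.2 to 88.2%), whereas 25.5% of BRG1 peaks had a BRM peak (25.2 to 25.9%). The intervals here and below cover counting error within these libraries only. The BRG1 list was 3.32 times as long as the BRM list and covered 37.4 Mb against 7.41 Mb, so the shares are not symmetric by construction. By the study's own read totals the BRM library was also the less deeply read. With the BRG1 list held to its 17413 peaks of highest −log10 q, 56.3% of BRM peaks had a partner and 54.2% of BRG1 peaks did. Requiring 50% of both peaks lowered the BRM share to 40.7%.

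Both ATPases were found together at the stronger sites, most clearly from the BRG1 side. Each list was ranked and divided into 10 groups of equal size. Of the BRG1 peaks in the lowest group by fold, 8.94% had a BRM peak, and of those in the highest group 64.0% did. By −log10 q the same share went from 3.06% to 77.2%. For BRM the share with BRG1 went from 75.0% in the lowest to 99.3% in the highest group by −log10 q. By fold it was 94.0% in the lowest group, 82.0% in the sixth and 96.0% in the highest, so that weak BRM peaks by fold had a partner about as often as strong ones. BRM peaks of low fold were wider (median 365 bp in the lowest group, 264 bp in the highest). The share of BRM peaks with BAF155 followed the same course, at 93.1%, 88.0% and 97.1% in those 3 groups.

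**Figure D1:**
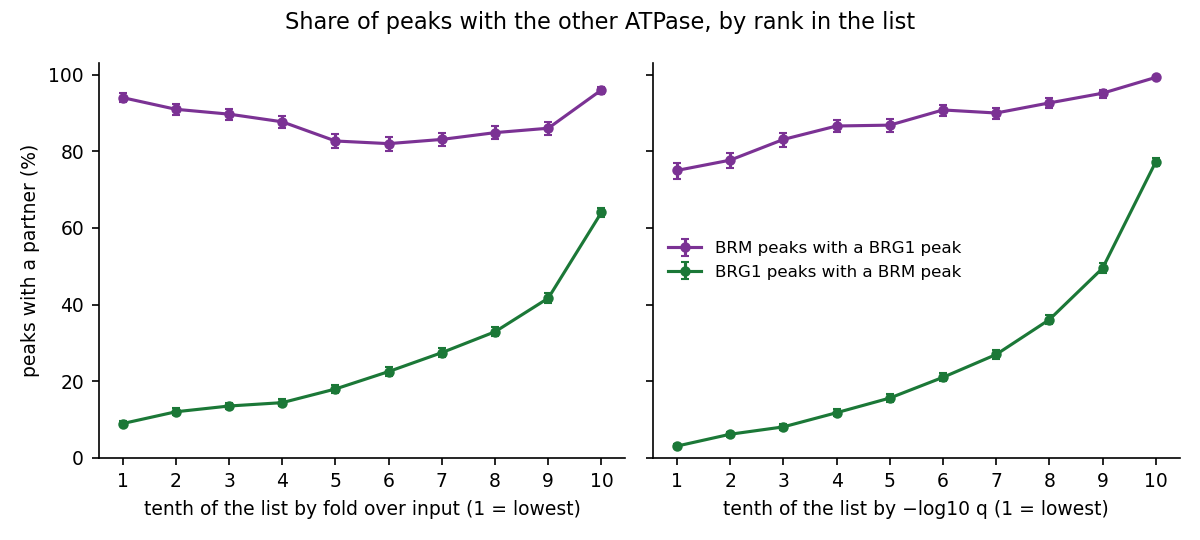
Share of peaks with a partner in the other ATPase's list (y axis, %) over 10 groups of equal size ranked by fold over input (left) or −log10 q (right), for BRM peaks (purple) and BRG1 peaks (green), with exact 95% intervals. The BRG1 curve rises to 64.0% by fold and 77.2% by −log10 q, and the BRM curve dips to 82.0% in the sixth group by fold.

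Where both were found, the BRM peak was mostly the smaller and lay inside the BRG1 peak. The 15281 overlapping pairs had the BRM peak covered in full in 65.9% of cases, and the median share of the BRG1 peak covered was 48.8%. The midpoints of a pair lay a median of 118 bp apart. A single BRM peak was found in 14293 of the BRG1 peaks with BRM, and 481 held 2 or more, with 4 at most. Fold enrichments of the 2 peaks of a pair went together (Pearson r = 0.75 and Spearman rho = 0.60 over 15281 pairs, given as a description because the libraries share an input and the pairs are not replicates).

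Peaks near the limit of the rule were few. Another 175 BRM peaks touched a BRG1 peak with less than 25% covered, at most 24.8%, and 58 counted as shared had between 25 and 30% covered at best. BRM peaks without BRG1 were often close to a BRG1 peak, with a median gap of 5.75 kb, and 501 of them (23.3%) lay within 1 kb of one. The 501 include the 175 that touched one. BRG1 peaks without BRM lay a median of 30.0 kb from the nearest BRM peak that did not touch them. Such a BRM peak lay within 1 kb of 2.38% of them. The BRG1 list was 3.32 times as long, so the gaps are not symmetric by construction.

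By the overlap rule shared peaks were wider than unshared ones on both sides. BRM peaks with BRG1 had a median width of 328 bp (quartiles 222 and 548 bp) and those without a median of 252 bp (179.5 and 397 bp). The BRG1 medians were 738.5 bp with BRM (401 and 1281 bp) and 406 bp without (251 and 680 bp). Peaks of 1000 bp or more made up 6.32% of BRM peaks with BRG1 and 0.28% of those without (6 peaks). For BRG1 these shares were 36.1% and 11.4%.

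The order held at promoters and elsewhere. At promoters, meaning midpoints within 1 kb of an annotated TSS, BRG1 peaks had a median width of 1024 bp with BRM and 574 bp without, and elsewhere 593 bp and 352 bp. The 456 BRG1 peaks that held 2 BRM peaks had a median width of 2516 bp. The overlap rule itself favours wide peaks. With peaks of a −log10 q of at least 3 only, in all 3 lists, the BRG1 medians differed by 1.02-fold in place of 1.82-fold. Lists of equal length kept the BRG1 ratio, at 1.85 by −log10 q and 1.90 by fold. The BRM ratio, 1.30 by the rule, was 1.10 with lists of equal length by −log10 q and 0.97 with lists of equal length by fold.

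**Figure D2:**
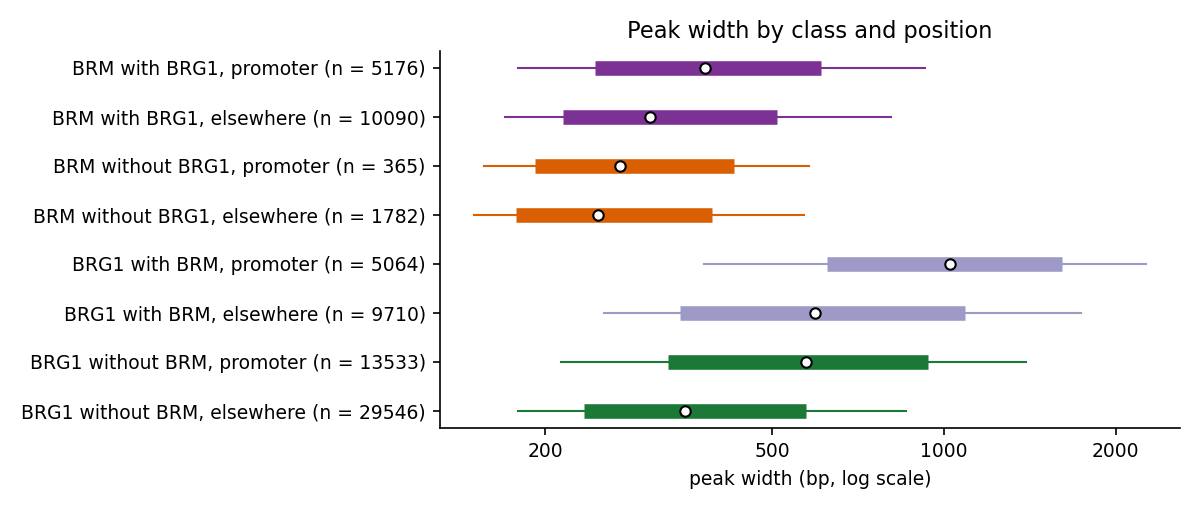
Peak width (x axis, bp, log scale) by class and position, with the median (circle), quartiles (thick bar) and 10th to 90th percentile (thin line). BRG1 peaks with BRM at promoters are the widest, with a median of 1024 bp, and BRM peaks without BRG1 outside promoters the narrowest, with a median of 247 bp.

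By fold the classes differed less than by width. The median fold over input was 3.26 for BRM peaks with BRG1 (quartiles 2.99 and 3.65) and 3.31 for those without (3.11 and 3.57), so the BRM peaks without a partner were not weaker by this measure. Their −log10 q was lower, with medians of 1.55 against 2.05. BRG1 peaks without BRM were lower by both measures, at a median fold of 2.86 against 3.21 and a median −log10 q of 1.93 against 3.46. The 5 BRM peaks without BRG1 of highest fold within 20 kb of a protein-coding TSS lay near DNMT1 (5.36), SORL1 (4.90), EDEM2 (4.64), CHST11 (4.61) and RGS8 (4.52). DNMT1 is the maintenance DNA methyltransferase, SORL1 a sorting receptor, EDEM2 a factor of the degradation of misfolded glycoproteins, CHST11 a chondroitin sulfotransferase and RGS8 a regulator of G protein signalling. The 5 shared BRM peaks of highest fold by the same rule had folds from 9.41 to 10.7. They lay near DPP6, S100A7A, TAFA4, POU2F2 and, at a promoter, a gene without a symbol. The strongest BRG1 peaks without BRM, near MARCHF4, POC1B-GALNT4, OOSP1, UACA and MEX3D, had folds from 5.21 to 6.47.

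By the overlap rule, promoters were held by shared and BRG1-only sites more than by BRM-only ones. Of BRM peaks with BRG1 33.9% were at promoters (5176 peaks), against 17.0% of those without (365 peaks), an odds ratio of 2.5 (interval 2.23 to 2.82). BRG1 peaks were at promoters in 34.3% with BRM and in 31.4% without (odds ratio 1.14, 1.09 to 1.18). BRM peaks without BRG1 were the more intronic, at 46.0% against 35.3% of BRM peaks with BRG1, and 32.7% against 27.2% were intergenic. From the other side, 93.4% of BRM peaks at promoters had BRG1 and 84.5% of those in introns did.

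These promoter contrasts depended on what counted as shared. The log2 odds ratio between BRM peaks with and without BRG1, 1.32 by the rule, was −0.22 when all peaks were set to 500 bp around their midpoints, −0.51 when 50% of both peaks had to be covered and 0.03 with lists of equal length. The contrast between BRG1 peaks with and without BRM, 0.19 by the rule, was −0.52 when pooled over 10 groups of like width and −0.40 at a −log10 q of at least 3. That between BRM alone and BRG1 alone, −1.16 by the rule, was 0.13 with 50% of both peaks covered and 0.11 at 500 bp. With lists of equal length it was −0.087 by −log10 q and 0.25 by fold. It stayed at −0.49 at a −log10 q of at least 3 and at −0.60 when pooled over width groups.

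**Figure D3:**
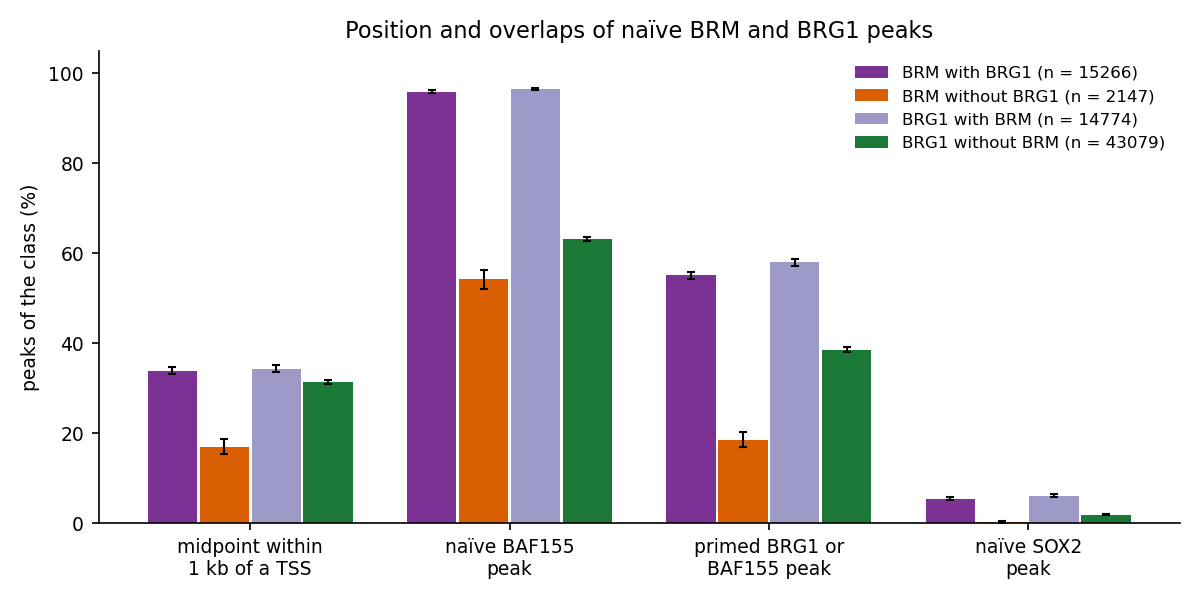
Share of peaks (y axis, %) at promoters and with a naïve BAF155, a primed BRG1 or BAF155, or a naïve SOX2 peak, for the 4 classes, with exact 95% intervals. BRM peaks without BRG1 are the lowest class in all 4 features, and both shared classes are above 95% for BAF155. The promoter order was not kept under several other overlap rules.

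BAF155 was found at nearly all shared sites and at a smaller part of the sites with a single ATPase. It overlapped 95.9% of BRM peaks with BRG1 (95.5 to 96.2%) and 96.5% of BRG1 peaks with BRM (96.2 to 96.8%). Without the partner the share was 54.2% for BRM (1163 peaks, 52.0 to 56.3%) and 63.2% for BRG1 (27241 peaks, 62.8 to 63.7%). The odds ratios were 19.7 (17.5 to 22.1) for BRM and 16.2 (14.8 to 17.7) for BRG1, with log2 values of 4.30 and 4.01. Under every alternative tried both stayed above 0, from 2.84 to 4.42 for BRM and from 2.14 to 4.00 for BRG1. The share with BAF155 also rose with −log10 q. From lowest to highest of the 10 groups it went from 32.2% to 98.0% for BRG1 and from 80.1% to 99.4% for BRM. The odds ratios were not pooled over these groups.

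The shares with BAF155 changed little with position for shared sites and more for sites with 1 ATPase. At promoters 97.04% of BRM peaks with BRG1 and 62.7% of those without had BAF155, and elsewhere 95.3% and 52.4%. For BRG1 without BRM the shares were 75.0% at promoters and 57.8% elsewhere. Between the classes with 1 ATPase the odds ratio was 0.69 for BRM against BRG1 (0.63 to 0.75), and its log2 value of −0.54 became 0.03 when pooled over width groups.

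Read from the BAF155 list, most peaks had an ATPase peak and few had BRM alone. Of 62338 BAF155 peaks 14359 (23.03%) had both ATPases, 27012 (43.3%) had BRG1 alone, 929 (1.49%) had BRM alone and 20038 (32.1%) had neither. Their median widths were 824, 515, 372 and 330 bp and their median folds 3.22, 2.86, 2.94 and 2.79, so BAF155 peaks with both ATPases were the widest and strongest. BRM peaks with BAF155 had BRG1 in 92.6% of cases, and BRM peaks without BAF155 in 39.0%. The 984 BRM peaks with neither partner had a median width of 245.5 bp, a median fold of 3.32 and a median −log10 q of 1.495. The 1163 with BAF155 were alike in width and fold (258 bp and 3.31), with a median −log10 q of 1.60.

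By the overlap rule, sites with BRM alone were also less often found in the primed BRG1, primed BAF155 and SOX2 lists. Alternatives to the rule were not run for these overlaps, and the rule favours wide peaks. A primed BRG1 or BAF155 peak overlapped 55.1% of BRM peaks with BRG1 and 18.6% of those without (odds ratio 5.37, 4.79 to 6.01), and 58.0% and 38.6% of BRG1 peaks with and without BRM. At promoters these shares were 78.7%, 38.1%, 82.5% and 70.1%, in the same order. SOX2, a core pluripotency factor, had a naïve peak at 836 BRM peaks with BRG1 (5.48%) and at 4 without (0.19%, 0.05 to 0.48%). It was found at 907 BRG1 peaks with BRM (6.14%) and at 789 without (1.83%). The primed BRM list of 167 peaks went the other way on few peaks. It overlapped 5 BRM peaks without BRG1 (0.23%, 0.076 to 0.54%), 14 with BRG1 (0.092%) and 15 BRG1 peaks without BRM (0.035%), and the 5 all lacked BAF155.

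At the level of genes, a peak was assigned to every protein-coding gene with a TSS within 20 kb of its midpoint. Of 19626 genes 8309 (42.3%) had a BRM site with BRG1, 1493 (7.61%) a BRM site without BRG1 and 15132 (77.1%) a BRG1 site without BRM. BRG1 without BRM was the only class at 7561 genes (38.5%), BRM with BRG1 at 1171 and BRM without BRG1 at 74, and 3182 genes had none of them. Genes with many start sites have larger windows, and neighbouring genes share peaks, so genes are not independent.

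Shared sites were frequent near pluripotency genes. Of 20 core pluripotency genes 19 had a BRM site with BRG1, and of 27 genes of the naïve state 23 did, against 42.3% of all genes. BRG1 without BRM was near 19 and 26 of them, against 77.1% of all genes, and BRM without BRG1 near 2 and 1, against 7.61%. The median number of shared sites per gene was 2 in both lists and 0 over all genes. Of 24 genes of the primed state 9 had a shared site (37.5%) and 22 a BRG1 site without BRM (91.7%, against 77.1% of all genes).

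TFAP2C, an AP-2 factor of naïve cells and trophoblast, had the most shared sites of the genes examined singly, 6, with folds from 2.74 to 3.54, of which 5 overlapped BAF155. The shared peak nearest to a TSS of TFAP2C, at 0.427 kb, ran on chromosome 20 from 56630100 to 56631222. It was 1123 bp wide and had a fold of 3.54. The annotated start of the gene was covered by a BRG1 peak without BRM, from 56628475 to 56629513. SOX2 had 5 shared sites and 2 with BRG1 alone. KLF5, a Krüppel-like factor, had 4 shared sites, among them a peak 0.1 kb from its TSS with a fold of 3.67. DNMT3L, a cofactor of the de novo DNA methyltransferases, had 4, with a peak at 0.012 kb from the TSS and a fold of 3.55.

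POU5F1, which encodes OCT4, had 2 shared sites, at 0.959 and 2.34 kb from a TSS, with folds of 3.51 and 3.27. NANOG had 1, of 226 bp, 2.95 kb from its TSS. NLRP7 and PRDM14 had 2 each, and DPPA3, DPPA5, TFCP2L1, TEAD4 and SMARCC1 had 3 each, with 1 to 6 BRG1 sites without BRM beside them. SUSD2, a surface marker of naïve cells, had 1 site of each of the 3 classes. KLF17, a Krüppel-like factor of the early human embryo, had 1 shared site, with a fold of 3.75. That site lay 11.9 kb from the TSS, in an exon outside the KLF17 gene. KLF17 also had 3 BRG1 sites without BRM, 1 of them 0.147 kb from a TSS.

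Among the genes examined singly, 4 of other states or lineages had BRG1 without BRM as the only class, as did 38.5% of all genes. ZIC2 and SALL1, factors of the primed state, had 5 and 4 such sites and no BRM site, and GATA3 and SOX17, factors of trophoblast and endoderm, had 3 and 4. KLF4 also had no BRM site within 20 kb and 4 sites with BRG1 alone, and TEAD4, which also acts in trophoblast, had 3 shared sites. The wider lists did not set lineage genes apart from all genes in 1 direction, with a shared site at 12 of 20 mesoderm, 15 of 27 trophectoderm, 12 of 24 neuroectoderm and 7 of 20 endoderm genes, against 42.3% of all genes. ARID3A had 8 shared sites, KRT8 7 and GATA6 4. Of 29 genes of the complex itself, 15 had a shared site and 16 any BRM site, against 42.3% and 45.3% of all genes. SMARCA2, which encodes BRM, had 1 shared site 0.992 kb from a TSS, 1 BRM site without BRG1 and 5 BRG1 sites without BRM, and SMARCA4, which encodes BRG1, had 1 shared site and 7 with BRG1 alone.

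**Figure D4:**
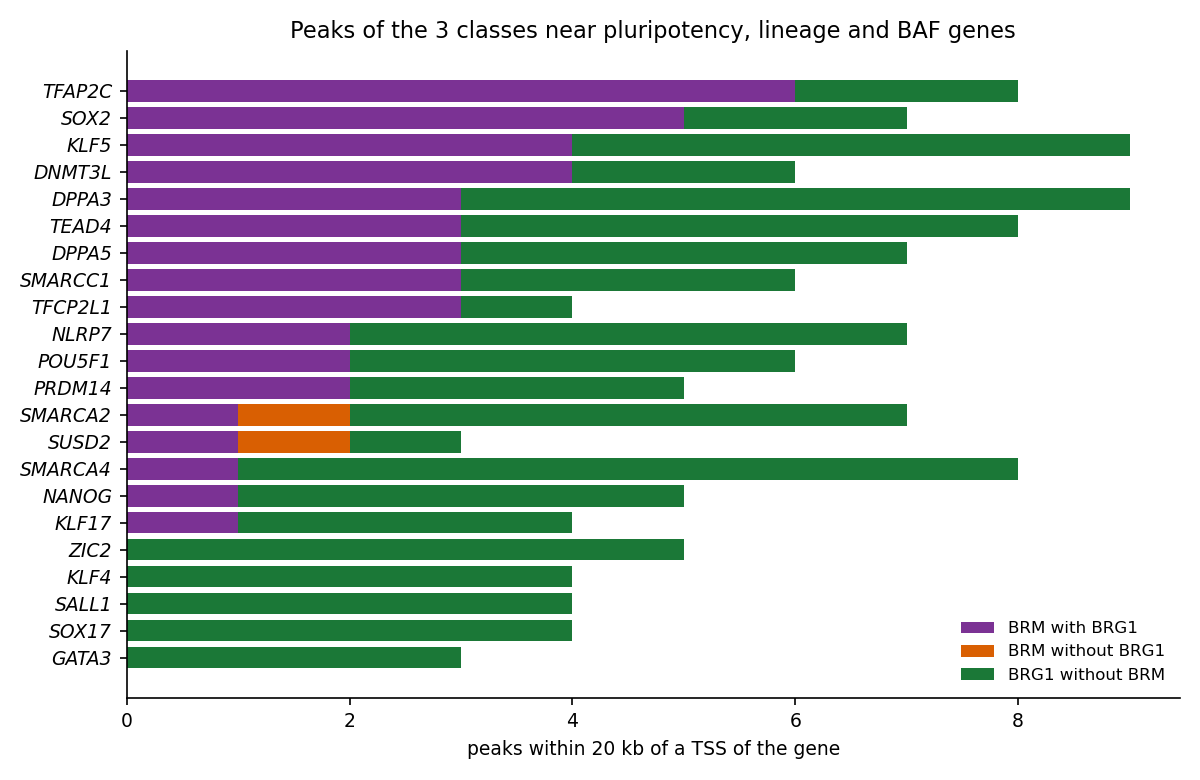
Number of peaks within 20 kb of a TSS (x axis) for 22 genes chosen for their roles in pluripotency, lineage choice or the BAF complex, stacked by class. SMARCA2 and SUSD2 are the genes with a BRM site without BRG1, 1 each. ZIC2, KLF4, SALL1, SOX17 and GATA3 have BRG1 without BRM only, as do 38.5% of all genes.

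The genes with the most sites of BRM alone were of mixed function. C16orf74 had 5 such sites and no shared BRM site, TOGARAM2 had 4 and no shared site, and BCAR3, an adaptor of growth factor signalling, had 4 beside 2 shared sites. DNMT1 had 4 beside 2 shared sites and 4 of BRG1 alone, and ARID1B, a DNA-binding subunit of the BAF complex, had 3 beside 1 shared. FBXO9, a subunit of a ubiquitin ligase, had 3 and no shared site. The genes with the most shared sites were DENND2A (12), ABR, ID1 and KDM2B (10 each) and CIRBP, ERCC1, GAS7, MIDN, PRRC2B and WNT3 (9 each). ID1, an inhibitor of helix-loop-helix factors, had 10 shared sites against 1 of BRG1 alone, whereas ABR had 10 against 16.

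Other groups differed in how many members had a shared site, read against 42.3% of all genes. It was 15 of 18 glycolysis genes, 14 of 16 DNA methylation genes, 15 of 20 Hippo pathway genes and 28 of 39 HOX genes. Of olfactory receptor genes it was 24 of 381 (6.30%). All 39 HOX genes had a BRG1 site without BRM within reach, against 77.1% of all genes, and none had a BRM site without BRG1, against 7.61%, but these genes are clustered and share peaks. BRM without BRG1 was near 5 of 16 genes of the LIF and STAT3 pathway, among them SOCS3, PIM3 and JAK1, against 7.61% of all genes, and near 5 of 27 trophectoderm genes, among them ARID3A and CLDN4. These are counts of few genes with no test, and the lists were not matched for the number of start sites or GC content.

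Sequence at the peaks set BRM without BRG1, as classed by the overlap rule, apart from both other classes. Other overlap rules and list lengths were not run for GC content or motifs. The 200 bp at its midpoints had a median GC content of 49.5%, against 54% for BRM with BRG1 and 53% for BRG1 without BRM. Motifs were searched on both strands and compared with windows of the same length 2 kb to either side of the same midpoints. KLF/SP (GGGNGNGG, bound by Krüppel-like and SP factors) was in 45.8% of windows of BRM with BRG1 and in 42.4% of BRG1 without BRM, over flanks of 22.6% and 19.4%. For BRM without BRG1 the share was 29.6% over a flank of 20.6%. TFAP2 (GCCNNNGGC, AP-2 factors) was in 17.9% of BRM with BRG1, 15.4% of BRG1 without BRM and 10.1% of BRM without BRG1, over flanks of 5.77%, 5.07% and 4.98%. Part of these differences went with GC content. Pooled over 10 groups of like GC content, the odds ratio of BRM without BRG1 against BRG1 without BRM moved from 0.57 to 0.77 for KLF/SP and from 0.62 to 0.96 for TFAP2, and that of BRM with against without BRG1 from 2.01 to 1.37 and from 1.95 to 1.26.

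GATA, TEAD and AP-1 letters were most frequent in BRM without BRG1 as classed by the overlap rule. The GATA motif, with the letters AGATAA, was in 13.8% of BRM peaks without BRG1 (296 peaks, 12.4 to 15.3%) over a flank of 10.1%, whereas BRM with BRG1 had 7.43% over 10.2% and BRG1 without BRM 7.61% over 11.2%. The odds ratio of BRM without BRG1 against BRG1 without BRM was 1.94 (1.71 to 2.21) and stayed at 1.53 when pooled over 10 groups of like GC content. TEAD (GGAATG) was in 16.6% of BRM peaks without BRG1, 14.1% of those with BRG1 and 12.4% of BRG1 peaks without BRM, with flanks between 10.4% and 11.2%. AP-1 (TGANTCA, FOS and JUN factors) was in 9.27%, 7.20% and 5.67% of these 3 classes, named in the same order. Their odds ratios between the classes with 1 ATPase were 1.41 (1.26 to 1.59) and 1.70 (1.46 to 1.98), and 1.20 and 1.42 when pooled over GC groups. Between BRM peaks with and without BRG1 the odds ratios were 0.50 for GATA, 0.82 for TEAD and 0.76 for AP-1. Pooled over GC groups these were 0.68, 0.96 and 0.89, so TEAD hardly differed between the BRM classes at like GC content.

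The GATA share was alike in the parts of the class. It was 12.6% in BRM peaks without BRG1 that overlapped BAF155 and 15.1% in those that did not. Above the median −log10 q of the class it was 14.8% and at or below it 12.8%, so it was not found in the weakest peaks alone. BRG1 peaks without BRM had 7.57% with BAF155 and 7.68% without. The octamer of POU factors (ATGCAAAT) was in 1.49% of BRM peaks without BRG1, 2.56% of those with BRG1 and 2.96% of BRG1 peaks without BRM, over flanks between 1.21% and 1.38%. A match is a run of letters that several factors can share and shows no binding.

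**Figure D5:**
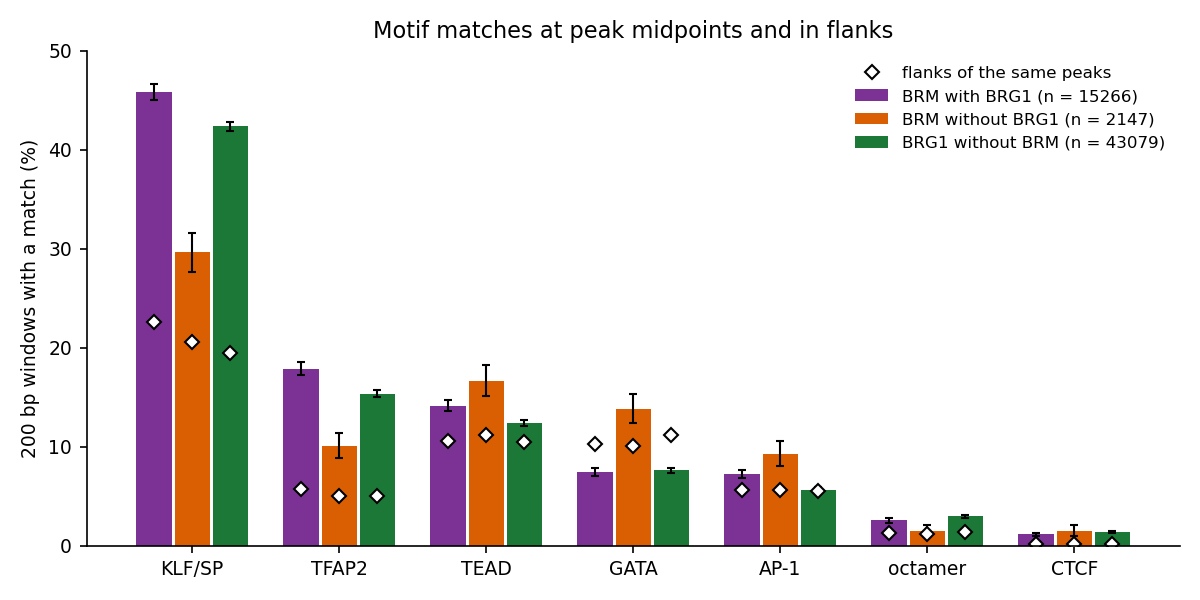
Share of 200 bp windows with a motif match (y axis, %) at the midpoints of the 3 classes (bars, exact 95% intervals) and in the flanks of the same peaks (diamonds). KLF/SP and TFAP2 are lowest in BRM without BRG1, at 29.6% and 10.1%, though the TFAP2 odds ratio against BRG1 without BRM is 0.96 at like GC content, and GATA is highest there, at 13.8% over a flank of 10.1%.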

How the data were processed

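ChIP-seq peak lists of naïve WIBR3 cells were analysed as deposited. According to the methods of the study, reads were trimmed, mapped to hg38 with bowtie2, freed of duplicates and called with MACS2 against input, as broad peaks for BAF subunits and narrow ones for SOX2. The naïve BRM, BRG1 and BAF155 libraries came from 1 protocol with single-end reads. The deposited files give for each peak its position, a score, the ratio of signal to input (fold), and p- and q-values on a −log10 scale, all as the authors' caller wrote them. The lowest −log10 q was close to 1 in all 3 lists. Positions alone were deposited for primed BRM and for repeat SOX2 libraries. The study states read totals, by which the BRM library was read less deeply than the BRG1 and BAF155 libraries. They were not used in any calculation here. A missing peak is a site below the caller's threshold, and list length can follow depth or antibody.

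Overlaps were made with bedtools 2.31.1 by the rule of the study (25% of either peak), after 31 BRG1 peaks off chromosomes 1 to 22 and X were left out. Promoters were midpoints within 1 kb of any TSS of GENCODE release 44, and any other midpoint was exonic, intronic or intergenic. Genes were protein-coding with a TSS within 20 kb. Shares carry exact Clopper-Pearson 95% intervals and odds ratios Woolf intervals (with 0.5 added where a count was 0). Pooled odds ratios are Mantel-Haenszel values over 10 groups of equal size. Motifs were searched in hg38 as fixed letters on both strands, and matches of different motifs can overlap. Copies of 32-mers were counted in chromosomes 1 to 22, X, Y and M. Code was tested on simulated data. No p-value was computed, since groups hold 1 library.

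The classes, gene lists and motifs were chosen with earlier results of these data known. Named genes are the 5 peaks of highest fold per class near a TSS, the 10 genes with most sites, 22 genes picked by role and up to 4 members per list with the most BRM peaks, and the sequences are those of the highest fold per class. Alternatives changed the overlap, the −log10 q threshold, list length, peak width, promoter and gene distance, and pooled over width, fold or GC.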

Additional observations from a re-analysis of the deposited data

How the results depend on the processing

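No replicate could be left out, and no result has an error between cultures. No paired analysis was possible because the BRM, BRG1 and BAF155 groups hold 1 library each, the SOX2 lists of a state are identical and no result comes from a test. Values below give the BRM and BRG1 shares with a partner (87.7% and 25.5% by the rule), the width ratios of peaks with over without a partner (1.30 for BRM and 1.82 for BRG1), 3 promoter log2 odds ratios (1.32 for BRM with against without BRG1, 0.19 for BRG1 with against without BRM, −1.16 for BRM alone against BRG1 alone), the same 3 for BAF155 (4.30, 4.01 and −0.54) and the gene shares of the 3 classes (42.3%, 7.61% and 77.1%), always in this order.

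With any 1 bp of overlap the BRM share was 88.7% and the share of genes near BRM alone 6.95%. With 50% of both peaks covered the shares were 40.7% and 12.3%, the BRG1 width ratio 1.03, the promoter values −0.51, −0.38 and 0.13, the BAF155 values 2.84, 2.14 and −1.53, and the gene shares 23.4%, 33.5% and 81.2%. At a −log10 q of at least 3 they were 86.0% and 20.5%, 1.40 and 1.02 for width, 0.052, −0.40 and −0.49 for promoters, 3.91, 3.69 and −0.22 for BAF155, and 12.2%, 2.31% and 39.8% of genes. With lists of equal length by −log10 q they were 56.3% and 54.2%, 1.10 for BRM width, 0.032, −0.024 and −0.087, then 3.44, 2.77 and −0.70, and 30.6%, 26.5% and 28.0%. With lists of equal length by fold, chosen after seeing the data, they were 47.5% and 46.1%, 0.97 and 1.90 for width, −0.029 and 0.25 for the first and the third promoter values, 3.51, 2.60 and −0.94 for BAF155, and 26.7%, 29.9% and 28.7%. With all peaks at 500 bp they were 72.2% and 21.7%, −0.22, −0.11 and 0.11, then 2.86, 2.22 and −0.72, and 37.4%, 18.5% and 78.4%.

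A promoter limit of 2.5 kb gave 0.97 and −0.80 for the first and the third promoter values, and a gene limit of 5 kb gave 26.7%, 2.84% and 60.9%. Pooled over width groups, the second and the third promoter values were −0.52 and −0.60 and the BAF155 values 4.00, 3.49 and 0.032. Pooled over fold groups, the second promoter value was 0.37 and the second BAF155 value 3.62. Width is part of the overlap rule, and why the promoter values turned was not tested. The first and second BAF155 values kept their direction under all alternatives run. Of 42 motif contrasts 6 turned when pooled over GC groups, TFCP2L1 (0.023) and SOX (−0.20) for BRM alone against BRG1 alone, SOX (0.20) and NRF1 (−0.57) for BRM with against without BRG1, and GATA (0.048) and NFY (0.0038) for BRG1 with against without BRM. GATA, TEAD and AP-1 in BRM alone against BRG1 alone kept theirs. Motif contrasts were not run with other overlap rules or list lengths.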

Other observations

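The classes were spread over the chromosomes with small differences. BRM peaks with BRG1 were from 84.0% of the BRM peaks on chromosome 15 to 93.3% on chromosome X (89.99 to 95.7%). From the other side, chromosome X had the lowest share of BRG1 peaks with BRM, 18.0% (16.2 to 20.0%), and chromosome 20 the highest, 30.7% (28.6 to 32.9%). Chromosome X held 3.11% of BRG1 peaks without BRM, 2.00% of BRM peaks with BRG1 and 1.02% of BRM peaks without BRG1.

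Windows in which most 32-mers had more than 1 copy in the genome made up 6.11% of BRM peaks with BRG1 (5.73 to 6.50%) and 8.10% of those without (6.98 to 9.34%). For BRG1 the shares were 7.33% with BRM and 10.3% without. CTCF, the insulator protein, had matches in 1.13% of BRM peaks with BRG1, 1.49% of those without and 1.36% of BRG1 peaks without BRM, over flanks between 0.12% and 0.15%. Among BRG1 peaks without BRM the CTCF share was 2.03% where BAF155 was absent (1.81 to 2.26%) and 0.98% where it was present (0.86 to 1.10%). ETS letters (CCGGAAGT), typical of promoters of housekeeping genes, were in 0.74% of BRG1 peaks without BRM, 0.41% of those with BRM and 0.19% of BRM peaks without BRG1 (4 peaks).

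Among lists of genes of other tissues, a shared site was near 5 of 15 erythroid, 5 of 14 muscle and 3 of 14 liver genes. The share over all genes was 42.3%. BRM without BRG1 was near 1, 1 and 0 of these genes, against 7.61% of all genes. ZNF genes had a shared site in 196 of 508 cases (38.6%) and ribosomal protein genes in 45 of 84 (53.6%). Of the other lists it was 18 of 30 cell cycle genes, 17 of 28 genes of the FGF and ERK pathway, 15 of 29 BAF subunit genes, 15 of 53 clustered protocadherins and 14 of 144 keratin and keratin-associated genes.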
